A study of Mus musculus with 24 samples.

Results

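The microRNA mmu-miR-375-3p was followed across 24 arrays of mouse serum and liver. It is 1 of 1881 mouse miRNAs on the array and was taken by its exact name, with both of its probes. It was selected on its serum values, the mean difference between mice on the steatohepatitis diet and controls, so that difference and its weekly values are given here as descriptions, without a test. Male C57BL/6NJcl mice were bought at 5 weeks of age. After 1 week of acclimatization they received either a choline-deficient, high-fat diet with 0.1% methionine (CDAHFD, the model of non-alcoholic steatohepatitis, NASH) or the chow CE-2 (control). Serum from heart blood and liver were taken after 1, 2 or 6 weeks of diet, at 7, 8 and 12 weeks of age, and each combination of tissue, diet and time was read on 2 arrays. All animals were of one strain and sex, the labels name no engineered allele, and the model is a dietary one. Nothing in the labels tells if the 2 arrays of a group stand for 2 mice or for pools, and the p-values below reflect only how far such arrays differ, which could be technical.

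MicroRNAs are cut from a hairpin precursor into a short duplex, of which one arm usually stays bound to an Argonaute protein and lowers the output of messenger RNAs that match its seed, the bases near its 5′ end. miR-375 is known as one of the most abundant miRNAs of pancreatic islet cells, where it restrains insulin secretion and is needed for a normal mass of endocrine cells, and it is also made in the pituitary and in gut epithelium. MicroRNAs in serum have left their cells, in vesicles or bound to protein, and serum levels do not name the cell of origin.

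The Mir375 gene, gene ID 723900 in RefSeq, lies on the minus strand of mouse chromosome 1 (GRCm38.p6, chr1:74900658-74900721). Its 64-base hairpin is shown first because both arms measured on the array come from it, and the capitals mark the 5p arm, bases 5 to 26.
Mir375 hairpin: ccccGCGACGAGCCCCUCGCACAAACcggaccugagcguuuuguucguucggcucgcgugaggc
The mature 5p arm follows (chr1:74900696-74900717), with its seed, bases 2 to 8, in capitals, because it is the partner strand that was measured beside miR-375-3p.
mmu-miR-375-5p: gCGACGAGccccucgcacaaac
None of the other entries among the 1679 mature mouse miRNAs in the RefSeq table carried this 5p seed. G and C made up 67.2% of the hairpin, and 54 of the 1005 mouse hairpins in that table had this share or more (median 51.7%).

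Both probes of miR-375-3p were read on every array, each from up to 15 spots. On the 12 serum arrays the miRNA carried the scanner software's detection flag on all 12. The brighter probe gave control signals of 148.9 and 173.6 after 1 week, 129.3 and 212.7 after 2 weeks, and 110.3 and 113.9 after 6 weeks (background-subtracted intensity, arbitrary units, before any scaling between arrays). In NASH serum the same probe gave 61.3 and 43.9 after 1 week, 47.5 and 39.1 after 2 weeks, and 40.4 and 42.1 after 6 weeks. Every NASH array lay below every control array: the highest NASH signal was that of week 1 replicate 1, and the lowest control signal that of week 6 replicate 1. The spots of the brighter probe on a serum array varied by 5.13% to 9.33% of their mean.

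The dimmer probe gave the same order of the diets. Its control signals ran from 49.1 to 103.3 with a median of 68.3, and its NASH signals from 15.3 to 29.7 with a median of 19.3 (6 arrays each). The 2 probes held a near constant ratio of 2.01 to 2.24 on the control arrays, and of 2.06 to 2.75 on the NASH arrays, where the week 6 pair had the highest ratios. On those arrays the dimmer probe came close to the lowest signal that was still well above background, 11.6 and 13.0, and only 86.7% and 66.7% of its spots were well above background. The brighter probe was well above background in all of its spots on every serum array and is used below.

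**Figure D1:**
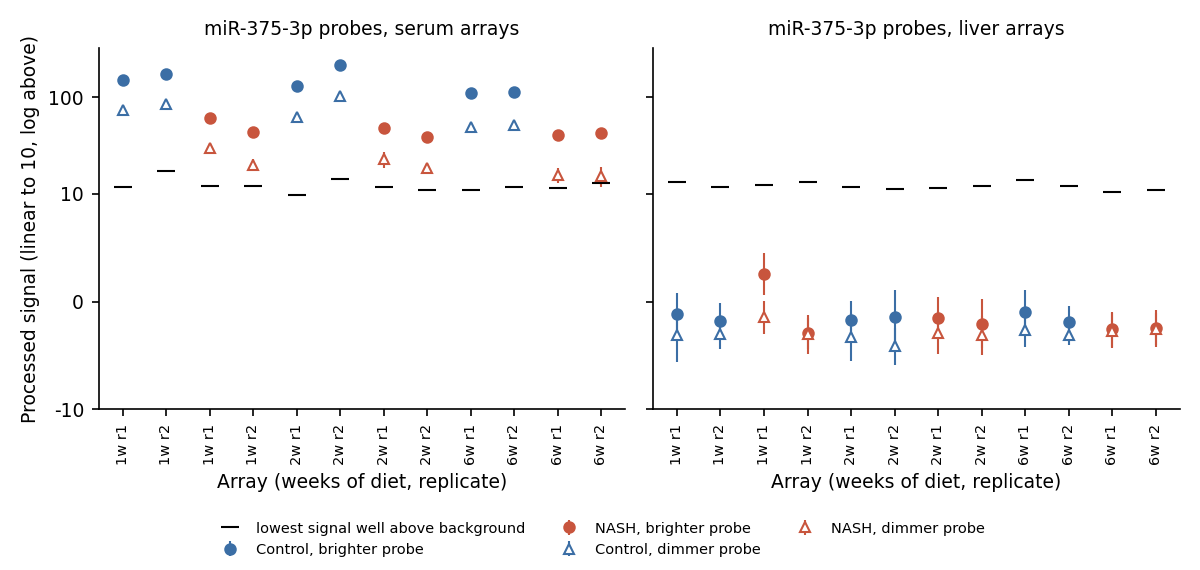
Background-subtracted signal of both miR-375-3p probes on each serum array (left) and liver array (right), with the SD over spots as bars and a dash at the lowest signal well above background on that array; the vertical axis is linear up to 10 and logarithmic above. On the 12 serum arrays both probes sit above the dash, with the NASH arrays lower than the control arrays, and on the 12 liver arrays both sit near 0.

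In liver miR-375-3p was detected on 0 of 12 arrays. Its brighter probe ran from -1.91 to -0.950 in control liver (median -1.56) and from -2.94 to 2.57 in NASH liver (median -2.27), values around 0 after background subtraction. The lowest signal well above background on a liver array was between 10.6 and 14.0, so that a level under this limit was not detectable in either diet. No diet difference could therefore be tested in liver. Liver arrays did carry the hepatocyte miRNA miR-122-5p on all 12, at 7.07 to 7.29 in control and 5.85 to 6.70 in NASH liver (log2 of the signal over the array's 75th percentile), the marker of the labelled tissue. The partner strand miR-375-5p was detected on 0 of 24 arrays in the 2 tissues, and the higher of its 2 probes reached 5.18.

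Control serum and control liver were set against each other in 1 fit over all 24 arrays, after each array was divided by its 75th percentile over the 163 probes that were well above background on all of them. The level in control serum was -1.44 ± 0.71 (log2, SD, 6 arrays). The limit of detection in control liver, on the same scale, was -6.81. Relative to the other miRNAs of its sample, miR-375-3p was thus at least 41.2-fold higher in control serum than in control liver. The limma fit across all 526 miRNAs tested used a higher floor in place of the liver signals. Its liver mean was therefore -5.95 and its difference 4.51, smaller than the 5.36 behind the bound, and the adjusted p of 1.5e-11 belongs to this smaller difference. Of all miRNAs tested, 50.2% were called higher in control serum in that fit, so that the call by itself does not set miR-375-3p apart. The bound depended on the scale. It was 11.7-fold without scaling, 10.6-fold when scaled over all probes, 8.17-fold after normexp background correction, 16.5-fold after quantile normalization and 19.6-fold for the dimmer probe, against 151-fold on the total gene signal. The labelled input was 2.5 ng of RNA for serum and 100 ng for liver, so the scaled values compare shares of the miRNA signal. The unscaled 11.7-fold compares raw signals from these unequal inputs. None of the values compares amounts per volume or weight.

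To set the serum arrays on one scale, each was divided by its own 75th percentile, taken over the 253 probes that every serum array read well above background, and log2 was taken. The control levels of miR-375-3p were then -1.29 and -1.89 after 1 week, -0.83 and 0.56 after 2 weeks, and -0.60 and -0.74 after 6 weeks. The NASH levels were -3.19 and -3.72 after 1 week, -3.03 and -3.26 after 2 weeks, and -3.07 and -3.28 after 6 weeks. The 6 NASH arrays lay close together and all below the 6 control arrays, with 1.14 between the highest NASH and the lowest control level. All 12 lay above the floor of -4.71 that replaced lower values, the nearest by 0.99.

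The ordered group means ran from -3.45 in NASH week 1 through -3.17 in NASH week 6 and -3.14 in NASH week 2 to -1.59 in control week 1, -0.67 in control week 6 and -0.13 in control week 2. Neighbouring NASH means, and those of control weeks 6 and 2, differed by less than the distance between the 2 arrays in the wider group of each pair, though in part by more than that in the narrower one. The step from NASH to control exceeded both distances, and so did the step from control week 1 to control week 6. The control arrays were spread over 0.82 (SD, 6 arrays) and the NASH arrays over 0.25.

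The NASH minus control difference was -1.86 after 1 week, -3.01 after 2 weeks and -2.50 after 6 weeks, and its mean over the weeks was -2.46 (SE 0.26, log2). In fold terms the control level was 3.64 times the NASH level after 1 week, 8.04 times after 2 weeks and 5.66 times after 6 weeks, and 5.49 times in the mean. The dimmer probe gave a mean difference of -2.57, and the software's total gene signal gave -2.41.

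**Figure D2:**
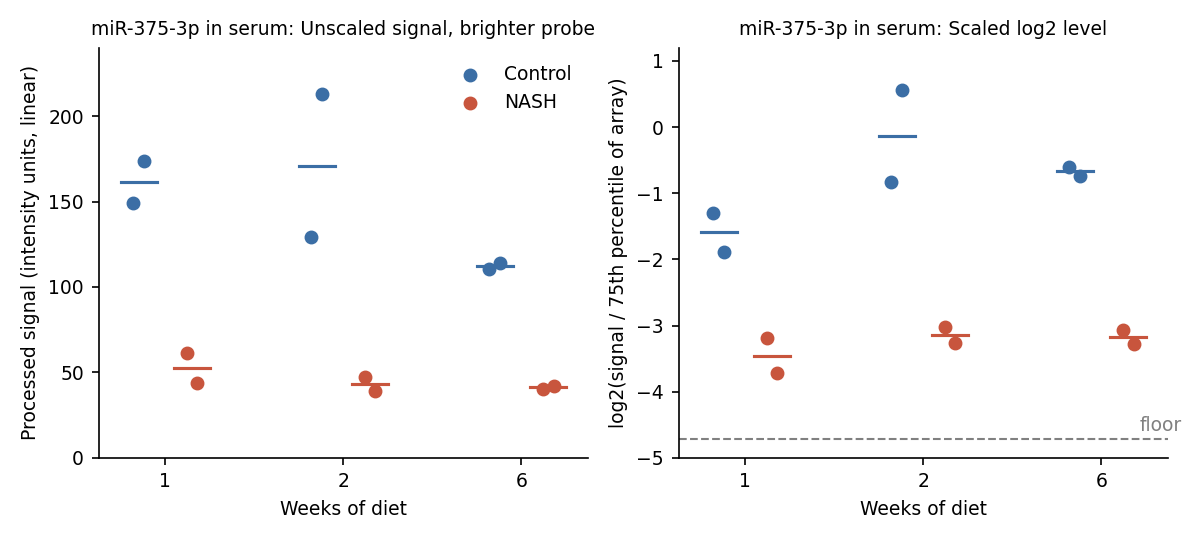
Serum miR-375-3p on each array by weeks of diet, as the unscaled signal of the brighter probe (left, linear) and as the scaled log2 level (right, with the floor dashed); points are arrays and bars the mean of the 2 arrays of a group. The 6 NASH arrays lie below the 6 control arrays in both panels, and the control arrays change order between them.

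The size of this difference depended on the scaling, and its sign did not. The 75th percentile itself was higher on NASH than on control serum arrays by 0.23 after 1 week, 1.06 after 2 weeks and 1.06 after 6 weeks (log2), and dividing by it lowers the NASH levels by these amounts. Without scaling, the difference was -1.63, -1.94 and -1.44 in the 3 weeks and -1.67 in the mean, a control level 3.19 times the NASH level. Scaling moved all miRNAs together: over the 155 miRNAs well above background on all serum arrays the median difference was -0.28 scaled and 0.50 unscaled. Relative to that median, miR-375-3p stood at -2.17 on both scales, which is fixed in advance because 1 factor per array shifts all these miRNAs alike. Relative to the median it was -1.20 after normexp and -2.39 with the second probe of each miRNA. The part of RNA yield or input in the array percentile was not tested.

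Scaling to the 3 reference miRNAs miR-16-5p, miR-24-3p and miR-103-3p gave -1.95, and there the highest NASH array, at -2.08, lay above the lowest control array, at -2.13. In 17 of 18 settings, the reported one included, the diets did not overlap, and over all 18 the mean difference lay between -2.54 and -1.58. Changes of the floor, detection filter or eBayes step and the slide row block could not alter its levels, all above the floor. Their mean of -2.46 was thus fixed in advance. The replicate block could not create an overlap either, since overlap was read on unadjusted levels. Leaving out 1 array at a time moved the mean difference between -2.69 and -2.23.

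**Figure D3:**
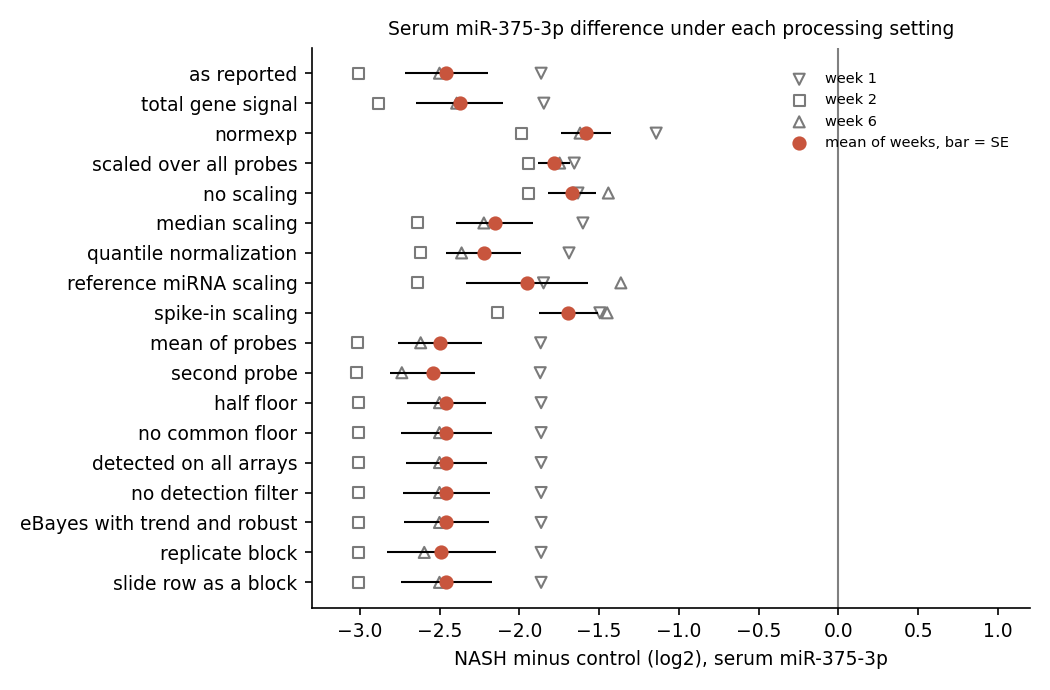
NASH minus control difference of serum miR-375-3p (log2) under each processing setting: filled points are the mean over weeks with the SE of the limma fit, and open symbols the weekly values. All values lie below 0, with means between -2.54 and -1.58.

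Among the 426 serum miRNAs tested, miR-375-3p had the second lowest mean difference, after miR-205-5p at -2.94, an epithelial miRNA, and before miR-133a-3p and the closely related miR-133b-3p of muscle, both at -2.18. It was the fourth lowest after normexp, without a common floor, and without control week 2 replicate 2. In all, 13.8% of the miRNAs tested in serum were called lower in NASH (59 miRNAs) and 4.93% higher (21 miRNAs) at an adjusted p below 0.05. Without scaling the split turned to 7 lower and 37 higher, and with the replicate block it was 40 lower and 21 higher. The 6 NASH arrays lay below the 6 control arrays without overlap for 4.23% of the miRNAs (18), miR-375-3p among them. The 426 include miRNAs with many values at the floor. Among the 154 other miRNAs well above background on all serum arrays, 14 were lower without overlap.

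Whether the diet difference changed between weeks was tested as a whole, since the choice of miR-375-3p had used the mean over weeks and not the order of the weeks. The difference was larger after 2 weeks than after 1 week by 1.14 (SE 0.64) and larger after 6 weeks than after 1 week by 0.64 on the log2 scale. The order of weeks 1 and 6 turned without scaling (-1.63 and -1.44), with the reference miRNAs (-1.85 and -1.36) and with spike-in scaling (-1.50 and -1.45). The F test in limma gave an adjusted p of 0.737, and no change between weeks was called for it. That test called 0.469% of the serum miRNAs (2 of 426, with 29 at an unadjusted p below 0.05). Under the alternatives that kept all 12 arrays or used a block the adjusted p ran from 0.338 to 0.979. The week 2 difference rests on 2 control arrays with an SD of 0.99.

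The control arrays alone gave the second test. Scaled control levels were 1.46 higher after 2 weeks than after 1 week and 0.92 higher after 6 weeks than after 1 week (SE 0.45 each). The F test in limma gave an adjusted p of 0.391, short of the threshold, while 2.11% of the serum miRNAs (9 of 426, with 51 at an unadjusted p below 0.05) were called. Over the other settings the adjusted p ran from 0.00167, after normexp, to 0.843. It was 0.0267 without control week 2 replicate 1, which left replicate 2 alone for that week, assumed to vary like the other groups. Without scaling the control differences from week 1 were 0.04 after 2 weeks and -0.52 after 6 weeks, so the direction after 6 weeks turned. The control 75th percentiles were 364.5 and 642.4 in week 1, against 144.0 to 229.9 in weeks 2 and 6. Week 6 serum lay on another slide than weeks 1 and 2, so that between these weeks the slide cannot be told apart from time. NASH serum levels differed by 0.31 between weeks 2 and 1 and by 0.28 between weeks 6 and 1, less than the distance between the 2 NASH arrays of week 1.

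Control arrays lay in columns 1 and 3 of every slide and NASH arrays in columns 2 and 4, and the diet cannot be told apart from the slide column. Within the first slide, which held weeks 1 and 2, the mean difference of serum miR-375-3p was -2.44. The number of miRNAs detected on a serum array was 235 to 362 in control and 313 to 399 in NASH. Red cell RNA was followed by a haemolysis index, the log2 level of the red cell miRNA miR-451a minus that of miR-23a-3p. It was 1.14 to 2.57 in control and 1.38 to 3.57 in NASH serum of weeks 1 and 2, and -0.25 and -0.11 in NASH serum of week 6. Its correlation with miR-375-3p over the 12 serum arrays was 0.02, a value that mixes the 2 diets. Among the control arrays the lowest index, 1.14, went with the highest miR-375-3p level, 0.56. The highest control index, 2.57, went with the lowest level, -1.89. In NASH serum the highest index, 3.57, also went with the lowest level, -3.72, while the lowest index, -0.25, went with -3.28. The relation within each diet was not tested.

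The name islet miRNA was set against 19 other miRNAs known from islet and neuroendocrine cells. Only miR-204-5p, a beta cell and eye miRNA, was detected on at least 2 serum arrays, and 16 of the 19 were detected on none. It was detected on 5 control and 3 NASH arrays. Its levels ran from the floor of -4.71 to -3.11 in control serum and were at the floor on all NASH arrays. Its difference of -0.46 (SE 0.23, adjusted p = 0.240) did not pass the test. miR-7a-5p, the other abundant islet miRNA of the list, was detected on 1 NASH serum array, and miR-129-1-3p on 1 control array. With values at the floor counted as 0, the summed scaled level of the list was 0 to 0.17 in control serum and 0 in NASH serum, where the few detected signals lay under the floor. The 4 markers of pancreatic acinar cells, miR-216a-5p, miR-216a-3p, miR-216b-5p and miR-217-5p, were detected on no serum and no liver array.

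In liver, 5 islet list members were tested and 2 fell, while miR-375-3p was not detected. miR-7a-5p, known in islets and brain, went from -2.68 to -2.31 in control liver to between -4.66 and -2.66 in NASH liver, a difference of -0.99 (SE 0.25, adjusted p = 0.0190). The call of miR-7a-1-3p, the partner strand from one of its precursors, rested on values at the floor, where all NASH arrays lay, and no size is given for it. Both calls were lost without scaling, where miR-7a-5p differed by -0.57 (adjusted p = 0.332) and miR-7a-1-3p had an adjusted p of 0.948. The 3 others, miR-96-5p, miR-129-1-3p and miR-335-5p, did not pass, at -0.05, 0.14 and -0.57. miR-335-5p, a miRNA of the Mest gene, was called lower with the replicate or slide row block (adjusted p = 0.0346) and after quantile normalization (-0.79, adjusted p = 0.0107). miR-129-1-3p, a miRNA of brain and islets, was called higher with spike-in scaling (0.40, adjusted p = 0.0213). Over all 388 liver miRNAs 20.4% were called lower and 21.9% higher, and the median difference of the list was -0.11 against 0 for all.

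Gut and other epithelia are also known sources of miR-375. Of 11 epithelial miRNAs, 10 were tested in serum: 4 fell, 1 rose and 5 did not pass, with a median difference of -0.46 against -0.11 over all 426. Of all 426, 13.8% fell and 4.93% rose. Without scaling 1 member of the list fell and 2 rose, against 7 and 37 of all 426. miR-205-5p, a miRNA of skin and other squamous epithelia, ran from -2.17 to -0.41 in control and from -4.54 to -3.07 in NASH serum, without overlap, and fell by 2.94 on the log2 scale (SE 0.28, adjusted p = 0.00154). Like miR-375-3p it was detected on all 12 serum arrays and on no liver array. Its weekly differences were -3.64, -2.22 and -2.96, against -1.86, -3.01 and -2.50 for miR-375-3p, and the difference between these 2 courses was not tested. Its fall kept its call without scaling (-2.16, adjusted p = 0.00314) and with the reference miRNAs (-2.34, adjusted p = 0.00764).

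The other 3 epithelial falls did not hold in this way. miR-200b-3p, of the family that keeps epithelial cells from a mesenchymal state, fell by 1.31 on the log2 scale (adjusted p = 0.0300) and the intestinal and kidney miRNA miR-215-5p by 1.12 (adjusted p = 0.0468). NASH levels of miR-200b-3p ran from the floor of -4.71 to -3.86 with a mean of -4.57, so the floor limits the size of its fall. The call of miR-200c-3p, of the same family as miR-200b-3p, rested on values at the floor, which have no spread: it was detected on 3 control and no NASH arrays, and no size is given for it. Without scaling miR-200b-3p and miR-215-5p were at -0.68 and -0.33, with adjusted p = 0.180 and 0.606, and miR-200c-3p was not called either (adjusted p = 0.606). With the replicate number as a block, miR-200b-3p was at -1.40 with adjusted p = 0.0588. The member that rose, miR-192-5p, is also abundant in hepatocytes: it was at -1.65 to -0.54 in control and 1.46 to 2.04 in NASH serum (2.65, SE 0.22, adjusted p = 0.00107). miR-203-3p, of skin and other epithelia, and miR-429-3p, of the miR-200 family, did not pass, at -0.81 (adjusted p = 0.104) and -0.58 (adjusted p = 0.0511). All NASH arrays of miR-429-3p lay at the floor, which limits the size of its difference. miR-194-5p, which is also on the hepatocyte list, did not pass either and went the other way, at 0.82 (adjusted p = 0.0585). Its difference after 6 weeks was -0.41.

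Markers of other sources of serum miRNA differed in both directions over the same arrays. Of 8 hepatocyte miRNAs tested, 5 rose and none fell (median 1.23), while 4.93% of all serum miRNAs rose and 13.8% fell. Of those that rose, miR-122-3p and miR-193a-3p had all control arrays at the floor. miR-122-5p, which makes up much of the miRNA of hepatocytes, was at -1.33 to 1.72 in control and 3.94 to 4.79 in NASH serum, a difference of 3.82 (SE 0.57, adjusted p = 0.00600). The summed scaled level of the list was 1.04 to 4.54 in control and 19.4 to 32.3 in NASH serum. In liver, 8 of its 9 members were called lower in NASH, against 20.4% of all liver miRNAs. Without scaling 3 of the 9 were, against 9 of all 388. Their part in the 75th percentile of the NASH serum arrays, and so in the scaled value of miR-375-3p, was not tested beyond the unscaled difference given above.

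Of 5 muscle miRNAs tested in serum 2 fell, miR-133a-3p by 2.18 on the log2 scale (SE 0.34, adjusted p = 0.00600) and miR-133b-3p by 2.18 (SE 0.33). Both regulate muscle growth and differ by a single base, so that their probes may read each other. Of 4 red cell miRNAs 2 fell, miR-486a-5p by 1.56 and miR-144-3p by 1.33, and of 4 platelet miRNAs 1 fell, miR-151-5p by 1.01. NASH levels of miR-144-3p ran from the floor of -4.71 to -4.18 with a mean of -4.62, so the floor limits the size of its fall. Of all 426 serum miRNAs 13.8% fell, and these short lists were not tested against that share. Without scaling no muscle, red cell or platelet miRNA of the lists was called, and miR-133a-3p was at -1.39 (adjusted p = 0.0800) while the median of the platelet list turned to 0.11. With the replicate block miR-144-3p was not called (adjusted p = 0.0794). The summed muscle level was 13.7 to 29.5 in control and 1.83 to 8.96 in NASH serum. The part of these cell types in the level of miR-375-3p was not tested.

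**Figure D4:**
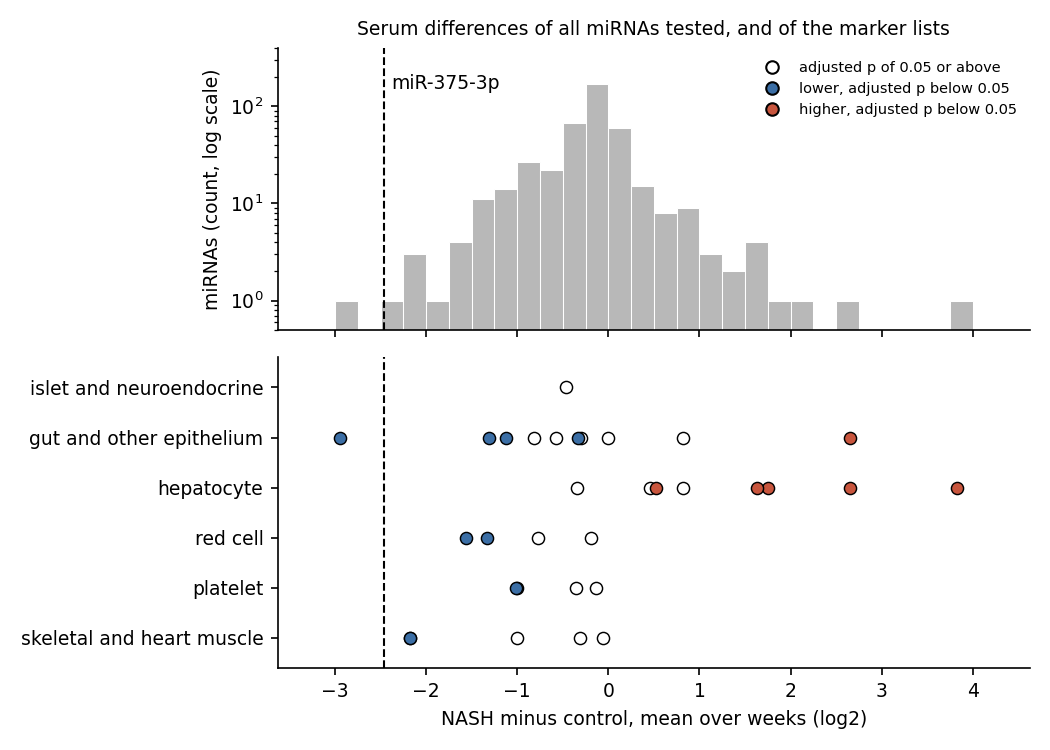
Mean NASH minus control difference (log2) of the 426 serum miRNAs tested, as a histogram on a log count axis (top) and for each marker list (bottom, 1 point a miRNA, filled where the adjusted p was below 0.05); the dashed line marks miR-375-3p at -2.46. Only miR-205-5p lies to its left, the islet list has 1 member that could be tested, and the hepatocyte list lies mostly to the right of 0.

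Across the 12 serum arrays, the scaled levels of 154 other miRNAs that were well above background on all of them were set against miR-375-3p. The correlations describe arrays that share a scaling factor and the diet groups, and carry no p. The 5 highest Pearson correlations were with miR-5119 (0.95), miR-345-5p (0.93), miR-139-5p (0.91), miR-486a-5p (0.91) and miR-149-5p (0.90), against a median of 0.34. miR-486a-5p is a red cell and muscle miRNA and miR-139-5p is made in many tissues, endothelium included. Their diet differences were smaller than that of miR-375-3p, at -1.37, -0.93, -1.07, -1.56 and -1.38 in the same order.

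Within the NASH arrays these correlations were lower than over all 12, between -0.03 for miR-486a-5p and 0.71 for miR-139-5p, and within the control arrays they lay between 0.73 and 0.89 (6 arrays each). The lowest correlations over the 12 arrays were with miR-192-5p (-0.88) and with miR-21a-5p (-0.85), a miRNA of many cell types that often rises in injured tissue. Within the control arrays these 2 correlations were 0.25 and -0.35, and within the NASH arrays -0.90 and -0.77. The diet differences of miR-192-5p and miR-21a-5p were 2.65 and 1.33.

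These correlations were lower on unscaled signals. The 75th percentile correlated with the scaled level of miR-375-3p at -0.81 and with its unscaled level at -0.46 (12 arrays). On unscaled signals the 5 correlations were 0.69, 0.32, 0.51, 0.67 and 0.61, and the highest of all 154 became that of miR-205-5p (0.79). The correlation of miR-192-5p was -0.85 and that of miR-21a-5p -0.73, and the lowest became that of miR-34a-5p (-0.86), a target of p53, followed by miR-122-5p (-0.85). These 2 and miR-205-5p were named here after their values were seen. Correlations over both diets include the diet difference, on which miR-375-3p was selected. On scaled levels miR-205-5p correlated with miR-375-3p at 0.84 over the 12 arrays, at -0.38 within the control and at 0.81 within the NASH arrays.

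**Figure D5:**
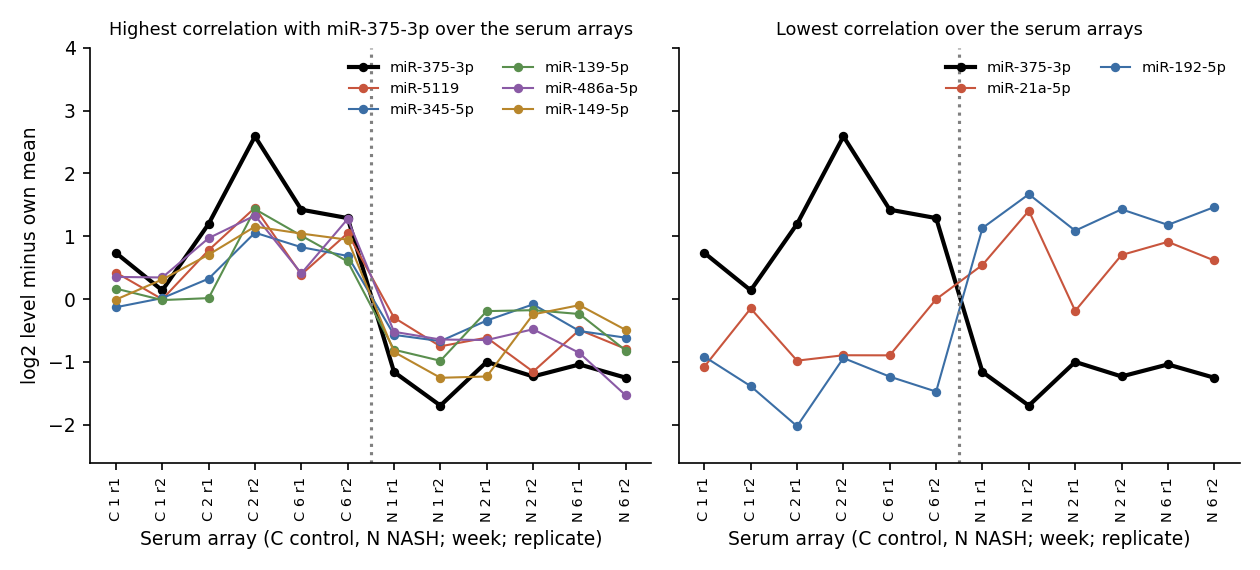
Scaled log2 level of miR-375-3p (black) on the 12 serum arrays, each miRNA centred on its own mean, with the 5 miRNAs of highest (left) and the 2 of lowest Pearson correlation (right); control arrays stand left of the dotted line. The control week 2 replicate 2 array is the highest for miR-375-3p, and miR-192-5p and miR-21a-5p run opposite to it between the diets.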

How the data were processed

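The deposited files give each spot's intensity as a background-subtracted processed signal, not normalized between arrays, per the file headers. The extraction software was Agilent Feature Extraction, in version 11.5 by the submitters' processing notes. Outlier and control spots were dropped and replicate spots averaged by probe. Arrays were scaled to their 75th percentile, over probes that had at least 0.5 of their spots well above background on each of the 12 arrays of that tissue. Lower values were raised to a floor of -4.71 in serum and -5.47 in liver (log2), the median across arrays of the 5th percentile among scaled signals well above background; 39.1% and 35.6% of values lay there and show no spread. The brightest probe stood for a miRNA. miRNAs detected on at least 2 arrays of a tissue were tested, 426 in serum and 388 in liver.

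Each tissue had 1 limma model (version 3.58.1, in R 4.3.3) with a mean for each of its 6 groups of diet and week. The Benjamini-Hochberg adjustment ran over all miRNAs tested, with a threshold of 0.05. In serum the eBayes prior added 0.53 degrees of freedom to 6 residual ones. Having 2 arrays a group limits the precision. No 2 arrays of a group were identical, and their log2 values correlated at 0.966 to 0.998.

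Replicate numbers coincide with slide rows. How same-numbered arrays of the 2 diets deviated from their groups was correlated over 155 serum miRNAs (0.55, 0.16 and 0.22 in weeks 1, 2 and 6) and 171 liver miRNAs (-0.57, 0.42 and 0.44). In serum all exceeded 0.1, and the replicate number was fitted as a block, as an alternative only. The reported fits hold no block. Because numbers coincide with slide rows, pairing cannot be told apart from an effect of the row. A serum array of NASH week 6 has no number in its label and was left out of the replicate block.

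miR-375-3p and the marker lists were chosen with earlier results of these data known. Named are both strands of miR-375, all detected islet and acinar list members, up to 4 members of each other list (those on most serum arrays, then brightest), and the 5 highest and 2 lowest correlations. Further list members, with or without a call, were added after their values were seen. miRNAs sharing the seed of miR-375-3p, also part of the rule, are not analysed here. The alternatives are those of the closing section; scaling to 2 spiked control probes and the first slide alone were added after the data were seen. Sequences are RefSeq's.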

Additional observations from a re-analysis of the deposited data

How the results depend on the processing

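The serum difference of miR-375-3p stayed below 0 in all 18 alternatives beside leaving out arrays. It moved by less than the replicate SD of 0.47 in 13 of them, and reached -1.58 after normexp, -1.78 scaled over all probes, -1.67 without scaling, -1.95 with reference miRNAs and -1.69 with spike-in scaling. The 13 include the changes of floor, detection filter and eBayes step and the slide row block, none of which could move it. Leaving out 1 array at a time gave -2.69 to -2.23. With the replicate block it was -2.49. The block changed no other call for miR-375-3p: the adjusted p of the diet-by-week test was 0.891 and that of the control week test 0.597. The control week test passed after normexp (adjusted p = 0.00167). Leaving out 1 array gave 0.0267 to 0.761 for it and 0.143 to 0.950 for the diet-by-week test.

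The count of serum miRNAs called, 80, was 364 after normexp (17 higher, 347 lower), 39 scaled over all probes (32 higher, 7 lower), 44 without scaling (37 higher, 7 lower), 40 with reference miRNAs (19 higher, 21 lower), 48 with spike-in scaling (41 higher, 7 lower), 35 with the second probe, 143 without a common floor and 35 without a detection filter. Median scaling gave 36 higher and 39 lower, quantile normalization 29 of each, and the total gene signal 38 higher and 48 lower. Leaving out 1 array gave 49 to 118, and the count fell by over 1.5 times without NASH week 1 replicate 1 (51), NASH week 2 replicate 1 (49) or NASH week 6 replicate 2 (51). The count in liver, 164, was 100 scaled over all probes (63 higher, 37 lower), 103 with the second probe, 251 without a common floor and 109 without a detection filter, and 137 to 174 leaving out 1 array. The cause of these changes was not tested.

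The bound of control serum over control liver kept its sign and call in all 9 alternatives and in the 24 fits that left out an array (log2 5.14 to 5.59). Leaving out a NASH array could not change the size of the bound, which uses control arrays only. The changes of floor and the replicate block could not change it either. The liver diet difference of miR-375-3p has no value under any alternative, because no liver array detected it.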

Other observations

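Detection in liver divided the serum miRNAs further. Besides miR-375-3p, 154 miRNAs were well above background on all 12 serum arrays, of which 34 fell in NASH serum and 10 rose (median difference -0.28). Of these, 18 were detected on no liver array: 5 fell and 1 rose, with a median of -0.03. Of the 109 detected on all liver arrays, 24 fell and 8 rose, with a median of -0.29. The 5 were miR-205-5p, miR-5119 (-1.37), miR-215-5p, miR-882 (-0.99) and miR-6418-5p (-0.71), and the one that rose was miR-714 (0.54). Without scaling miR-5119 and miR-215-5p were not called (adjusted p = 0.0878 and 0.606). For miR-882 and miR-6418-5p the unscaled fit was not examined, so it is not known if their calls hold. The 75th percentile was higher in NASH serum by 0.78 in the mean over weeks (log2), more than the fall of miR-6418-5p. These miRNAs were picked out after their values were seen, and the shares were not tested against each other.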
